A study of Mus musculus with 34 samples.

Results

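Forkhead transcription factor genes were taken as every gene whose name on the array begins with Fox, followed by a subfamily letter from a to s and a number. Their probes were grouped into CpG islands, meaning runs of at least 3 probes with gaps of at most 500 bases on an autosome, and this gave 57 islands of 33 genes among the 13616 islands scored on every array. The islands hold 585 probes. DNA methylation was measured by immunoprecipitation of sonicated DNA with an antibody against 5-methylcytidine (mDIP), followed by hybridisation of the bound DNA and the input DNA on a mouse CpG island microarray. Each probe's ratio of bound over input was turned into a Z-score within its array, and the mean over an island's probes is its island methylation score (IMS), so an IMS of 0 is the average of all probes of that array.

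The 34 arrays, 1 per sample, fell into these groups. Adult tissue had 16 arrays, 2 each of colon, pancreas, brain, kidney, liver, lung, muscle and spleen from mice aged 3 months, which the study's methods give as C57Bl/6. Embryo had 5 arrays, 1 each at 8.5, 9.5, 10.5, 11.5 and 12.5 days. Undifferentiated embryonic stem (ES) cells had 1 array of each of the lines EB5, J1 and TT2. The 5 arrays of ES cells differentiated in culture were 2 of endoderm and 1 of mesoderm, derived from EB5 with Activin A and sorted on reporters for Goosecoid and Sox17, and 1 of embryoid bodies and 1 of retinoic acid treated cells, both of TT2 by their labels. For the retinoic acid treated cells a figure legend of the study also gives TT2, while its methods name J1. Teratoma had 2 arrays, labelled as generated from J1 although the methods name other lines, grown under the skin of immunodeficient mice whose own cells may be in the tissue. Single arrays held beta cells sorted from islets of Pdx1-GFP mice with an antibody against insulin, the beta cell line Min6, derived from an insulinoma, and the alpha cell line aTC, derived from a glucagonoma. The labels do not say that replicates came from separate animals or cultures, so p-values measure the spread between these samples, which may be partly technical. The arrays measure DNA methylation and no transcripts, and cell identities were not checked here against marker expression.

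Of the arrays, 14 gave 97651 probes and 20 gave 88737, all of which are among the larger set, so that the scores of 24 of the 57 islands include further probes on the larger arrays (52 of the 585). With the shared probes alone the counts of forkhead islands past each test below stayed as given, except for embryos against adult tissue. Median signal over local background ranged from 3.07 to 7.34 for the input channel and from 1.54 to 5.59 for the bound channel, and in the bound channel an array had between 59.3% and 99.0% of its probes well above background. The number of arrays limits the precision, and a group of 1 array has no replicate check. Embryo arrays shared neither slide nor scan day with an adult array, and both colon arrays were the only arrays scanned on their day. The scanner ratios of the J1 array correlated with the deposited Z-scores of that sample at r = 0.113 over probes, against 0.894 to 0.991 on the other arrays, so results for undifferentiated cells are given with and without J1.

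Forkhead proteins bind DNA through a winged helix domain, and the letter of the name marks the subfamily. FoxA proteins are pioneer factors that open chromatin in the endoderm, FoxC, FoxD and FoxF proteins act in mesoderm, FoxI, FoxJ and FoxN proteins include regulators of ear, cilia and retina, and FoxO proteins act downstream of insulin signalling. Many of these genes begin in a CpG island, which is usually free of methylation in normal tissue, and many are held silent by Polycomb proteins in ES cells. The genes were arranged by role as 8 genes of endoderm and gut with 17 islands, 7 of mesoderm, vessel and skeleton with 14, 10 of nerve, eye and ear with 15, and 8 of metabolism, cell cycle or broad expression with 11.

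The sequence around the start of a gene shows how CpG-rich the start is. The measured probes can lie outside it. RefSeq windows of 300 bases, from 250 before to 50 after a start in the mouse build GRCm38.p6, matched 22 of the 33 genes. These 22 genes have 26 windows with a median of 24 CpG dinucleotides, against a median of 7 in all 32851 windows. The 4 windows below belong to genes whose start island, or in the case of Foxd3 whose upstream islands too, carries a result described later. CpG dinucleotides are in capitals.
Foxd3, chr4:99656049-99656348, + strand: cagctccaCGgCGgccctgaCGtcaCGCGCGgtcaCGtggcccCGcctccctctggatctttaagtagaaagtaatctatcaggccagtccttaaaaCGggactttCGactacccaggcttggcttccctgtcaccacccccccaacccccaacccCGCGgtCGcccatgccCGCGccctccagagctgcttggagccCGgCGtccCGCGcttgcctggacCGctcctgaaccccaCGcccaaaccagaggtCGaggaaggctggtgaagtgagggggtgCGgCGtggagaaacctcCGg
Foxi2, chr7:135410117-135410416, + strand: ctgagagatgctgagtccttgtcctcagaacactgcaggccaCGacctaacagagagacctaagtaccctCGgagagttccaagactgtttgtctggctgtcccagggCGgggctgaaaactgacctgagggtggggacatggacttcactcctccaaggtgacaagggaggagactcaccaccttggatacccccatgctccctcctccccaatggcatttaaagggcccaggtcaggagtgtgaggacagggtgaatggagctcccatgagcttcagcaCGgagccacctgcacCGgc
Foxn4, chr5:114273712-114274011, - strand: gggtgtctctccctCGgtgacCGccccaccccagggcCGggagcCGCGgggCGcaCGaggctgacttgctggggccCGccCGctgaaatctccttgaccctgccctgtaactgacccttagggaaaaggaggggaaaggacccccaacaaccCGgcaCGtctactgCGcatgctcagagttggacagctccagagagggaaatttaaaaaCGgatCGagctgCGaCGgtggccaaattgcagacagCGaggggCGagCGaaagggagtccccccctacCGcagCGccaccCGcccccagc
Foxr1, chr9:44440819-44441118, - strand: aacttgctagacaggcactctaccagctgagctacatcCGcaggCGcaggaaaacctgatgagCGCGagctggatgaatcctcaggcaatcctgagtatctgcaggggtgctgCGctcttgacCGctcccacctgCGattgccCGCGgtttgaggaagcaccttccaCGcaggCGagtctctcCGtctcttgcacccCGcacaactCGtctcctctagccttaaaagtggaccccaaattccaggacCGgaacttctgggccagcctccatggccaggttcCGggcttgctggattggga
The Foxd3 window holds 25 CpGs, as many as or more than which are found in 18.4% of all windows. The corresponding values were 22 CpGs and 23.1% for Foxn4, 16 and 33.0% for Foxr1, and 5 and 62.0% for Foxi2. The genome build of the array's own positions is not given in the sources used here, so array positions and RefSeq positions are not set against each other.

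Of the 57 islands, 29 cover or lie within 1000 bases of the start of the gene as the array annotates it, 8 lie upstream, 11 within the gene and 9 downstream. A single island was scored for 18 genes, 2 for 8 genes, 3 for 6 genes and 5 for Foxp4. Islands of one gene are numbered along its direction of transcription, and positions are given in the array's own coordinates. Scores compare an island between arrays, and levels between islands also depend on CpG density and probe, so levels of different islands are given as a description.

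In adult tissue most forkhead islands had low scores. The median over the 57 islands of the adult mean was -0.26, against -0.21 over all islands. All 16 adult arrays were below 0 for 9 forkhead islands (15.8%), against 29.8% of all islands, and each of the 9 lies at a gene start. All 16 were above 0.75 for 5 forkhead islands (8.77%), against 7.37% of all islands. The plot of scores on every array shows a few islands high in all normal samples among many low ones.

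**Figure D1:**
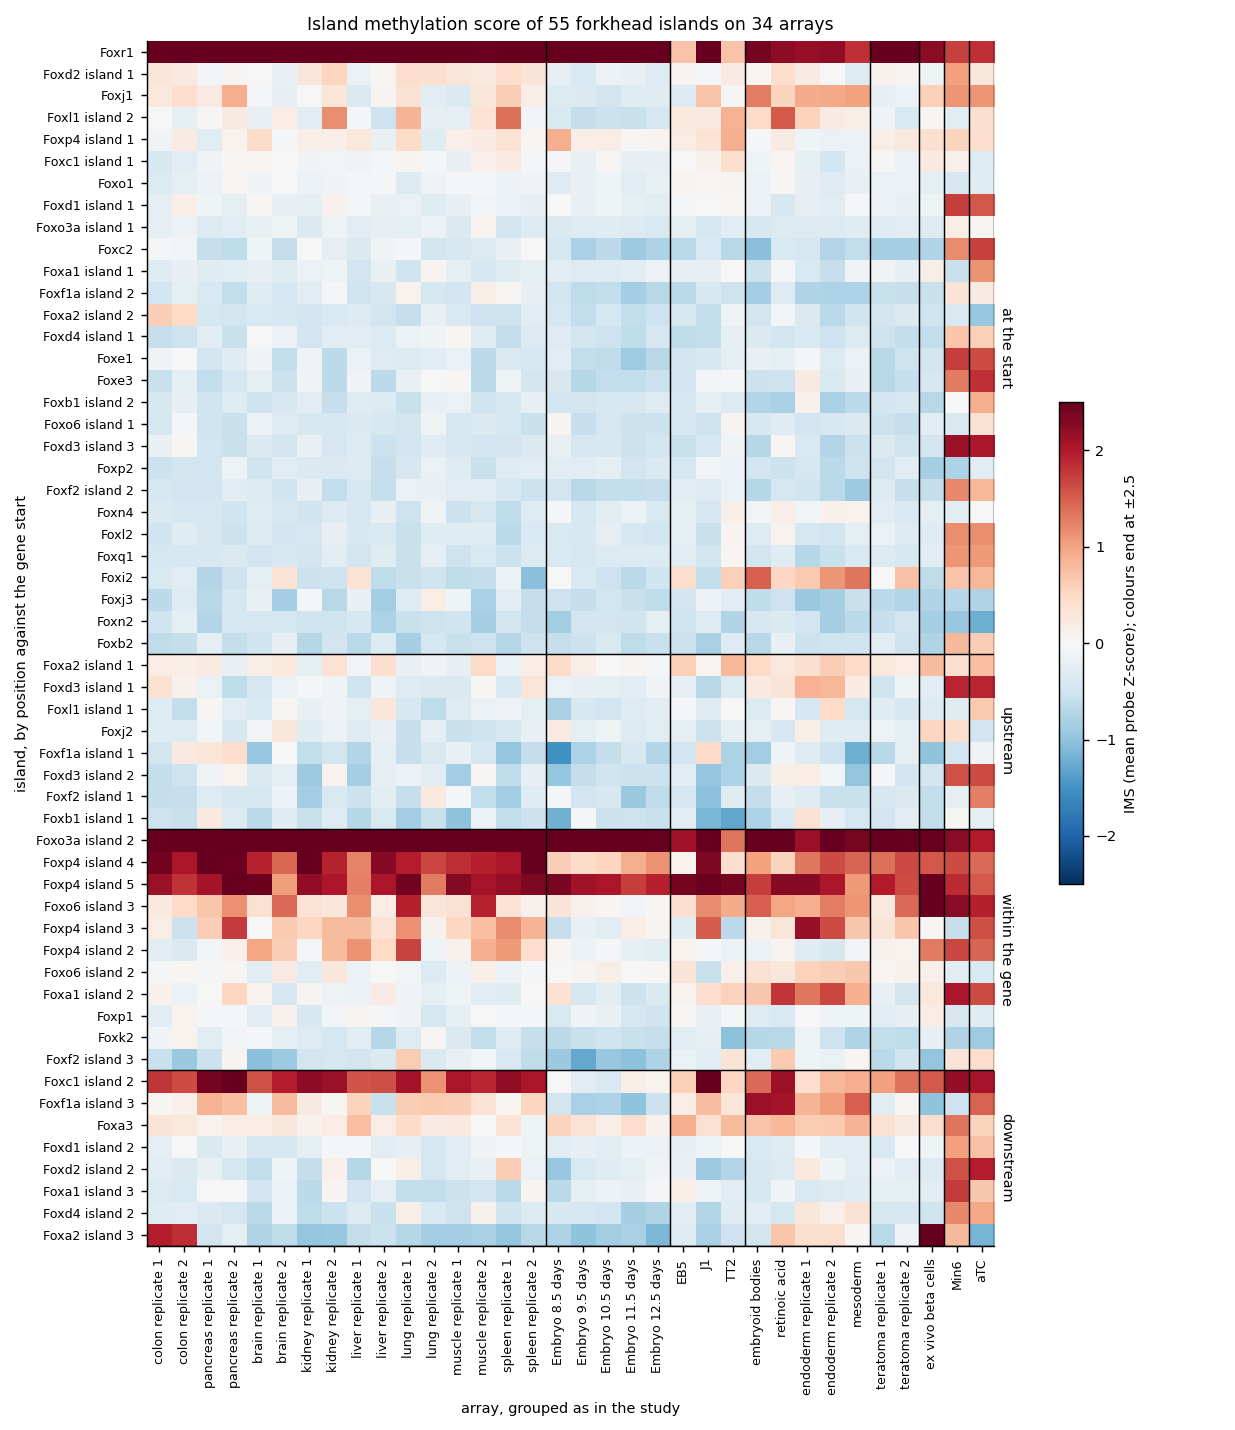
Island methylation scores (IMS, colour scale) of 55 forkhead islands (rows, in groups by position against the gene start) on the 34 arrays (columns, in groups). A few islands such as Foxr1 and Foxo3a island 2 are high in all adult arrays, while Min6 scores above 0.75 at 27 and aTC at 27 of the islands drawn.

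The 5 islands above 0.75 throughout adult tissue were those of Foxr1, Foxo3a, Foxp4 and Foxc1. Foxo3a, a FoxO gene now called Foxo3, had its island 2 within the gene (chr10:41885340-41886271) at 3.20 ± 0.30 (SD, n = 16), with a range of 2.76 to 3.70. Foxr1, known for expression in germ cells and the early embryo, reached 3.04 ± 0.30 at its start (chr9:44191624-44192058), with a range of 2.46 to 3.47. Foxp4, a regulator of lung and gut epithelium, carried such scores at its islands 4 and 5 within the gene, with 2.07 ± 0.42 and 2.01 ± 0.44. Foxc1, needed for vessels, eye and skeleton, was at 1.93 ± 0.37 at its downstream island 2 (chr13:31818421-31819551). At Foxo3a and Foxc1 the start island was low on the same arrays, with means of -0.24 ± 0.13 and -0.05 ± 0.15. The 3 lowest adult means were those of the start islands of Foxb2 (-0.53 ± 0.17), a gene of the embryonic nervous system, and of the broadly expressed Foxn2 (-0.53 ± 0.15), and of the upstream island 1 of Foxb1 (-0.49 ± 0.29), a gene of hypothalamus and midbrain.

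Among the 8 adult tissues a single forkhead island passed the test, the island 3 of Foxa2 at chr2:147729981-147730373, which lies downstream of the gene, 8059 to 8407 bases from its start. Foxa2 directs endoderm formation and is expressed in gut, liver, lung and pancreas. The colon arrays were at 1.97 and 1.84, pancreas at -0.48 and -0.24, brain at -0.75 and -0.63, kidney at -0.96 and -0.94, liver at -0.60 and -0.54, lung at -0.70 and -0.86, muscle at -0.84 and -0.81, and spleen at -0.99 and -0.69. Both colon arrays lay high and the 14 others low, with no overlap. The moderated F over tissues was 78.2 (limma, Benjamini-Hochberg adjusted p = 0.000138), where 0.0808% of all islands passed. Colon exceeded the mean of the other tissues by 2.62 ± 0.11 (SE, adjusted p = 9.24e-07, limma), and 0.72% of all islands passed this contrast.

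**Figure D2:**
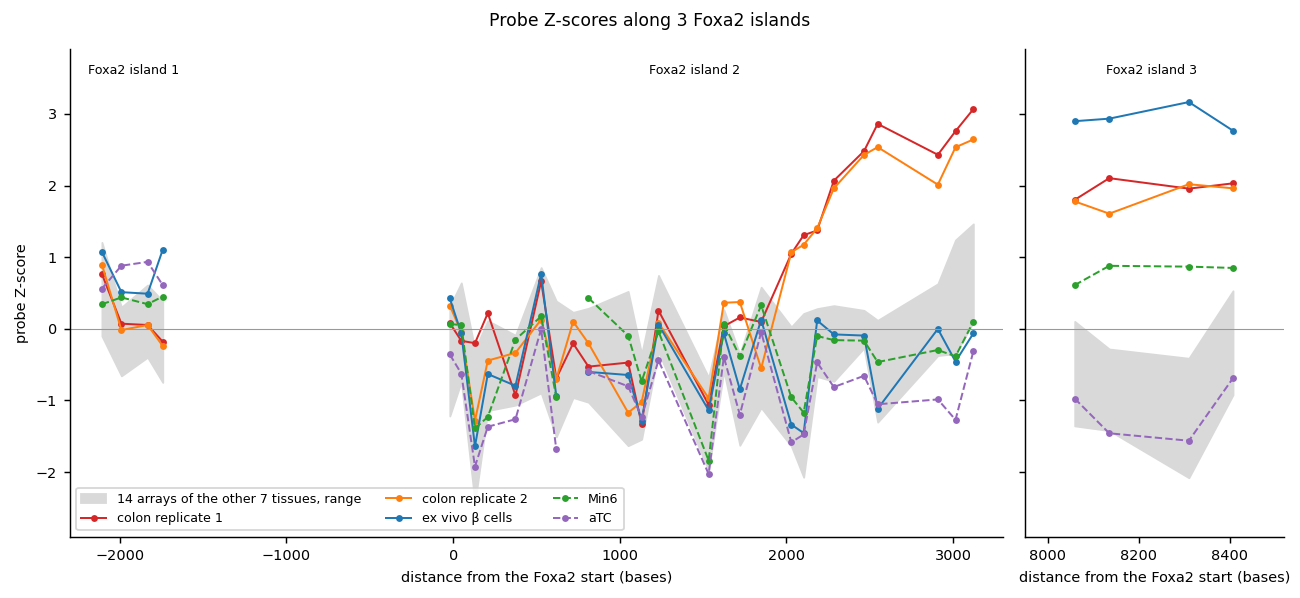
Z-score of each Foxa2 probe against its distance from the gene start in bases, for colon, the other adult tissues (grey band, the range over 14 arrays), ex vivo beta cells, Min6 and aTC. Colon rises above the other tissues from 2029 bases onward, and at island 3 colon and ex vivo beta cells are high.

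The plot of Foxa2 probes shows that the colon signal was not limited to island 3. Island 2 spans the start and the gene body from -20 to 3121 bases. Up to 1848 bases the colon mean exceeded all 14 other adult arrays at 1 probe, the one at 1720 bases (0.27 against at most -0.36). At 2029 bases colon averaged 1.06 and the 14 other adult arrays ranged from -1.64 to 0.03. At 3121 bases colon averaged 2.85 and the others ranged from 0.09 to 1.46. Each of the 9 probes from 2029 bases on had a colon mean above the highest of the 14 other adult arrays. As a whole, island 2 was at 0.61 and 0.50 in colon against -0.58 to -0.18 elsewhere, without overlap. The difference was 0.97 ± 0.12 (SE, adjusted p = 0.00571, limma), but this island did not pass the F test over tissues (adjusted p = 0.259) and was singled out after its values were seen. The upstream island 1 differed by 0.11 ± 0.20 (adjusted p = 0.886). No other tissue had a forkhead island past its contrast, and the smallest adjusted p among them was 0.836, for pancreas. Since colon filled its scan day alone, colon and that day cannot be told apart. With background correction by normexp neither Foxa2 island passed.

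Differentiated ES cells differed from adult tissue at 19 of the 57 forkhead islands, 11 higher and 8 lower, in 17 genes. Over all islands 23.2% passed, 14.4% higher and 8.73% lower, so the forkhead share of 33.3% stood on a background that was itself large. The median difference was -0.03 over the forkhead islands and -0.01 over all islands. In the comparisons below, rose, gained and fell mean a higher or lower score than in the group compared, not a change over time. The neural group rose at 6 of its 15 islands and fell at none. The mesoderm group rose at 1 and fell at 4 of 14, the endoderm group rose at 3 and fell at 2 of 17, and the metabolism group rose at 1 and fell at 2 of 11. By position, 4 of the 9 downstream islands rose, as did 3 of the 29 at a start.

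**Figure D3:**
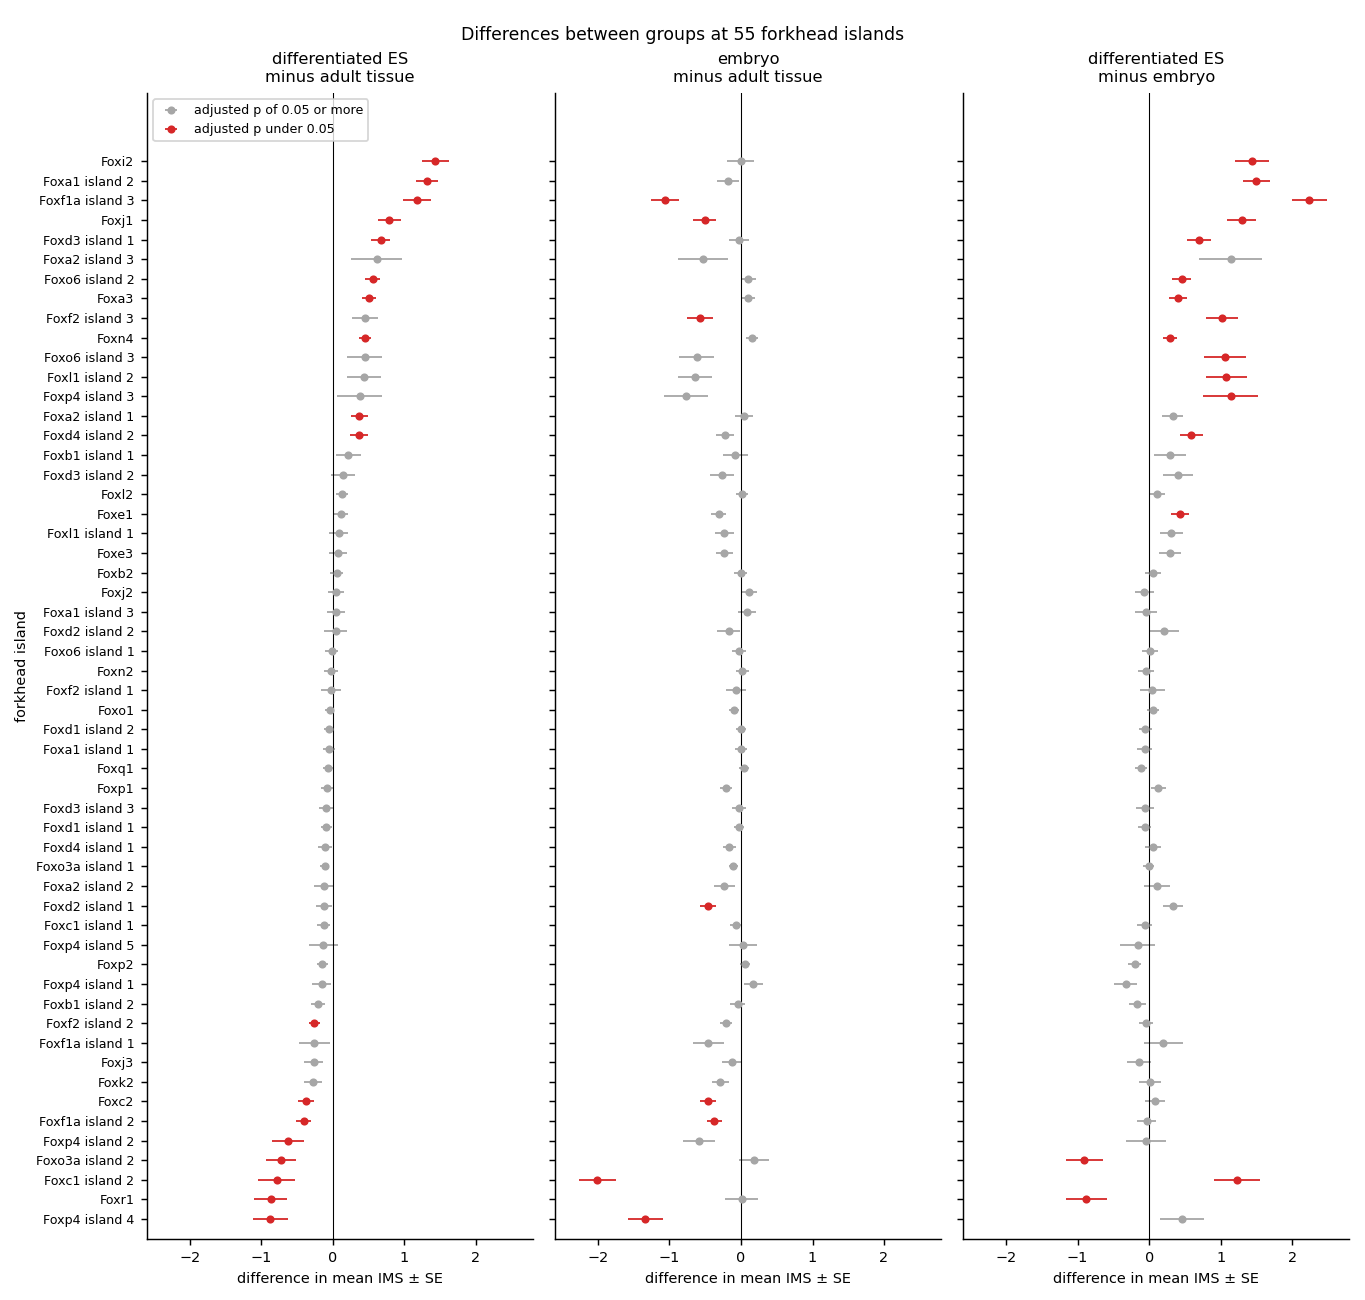
Difference in mean IMS (points, bars are the standard error) at 55 forkhead islands for differentiated ES cells minus adult tissue, embryo minus adult tissue and differentiated ES cells minus embryo, in red where the adjusted p was under 0.05 (limma). Foxi2, Foxa1 island 2 and Foxf1a island 3 have the highest values for differentiated ES cells against adult tissue.

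Among endoderm genes, Foxa1 gained most at its island 2, which lies within the gene at chr12:58460263-58461398, 2757 to 3847 bases from the start. Foxa1 is the pioneer factor partner of Foxa2. Adult arrays ranged from -0.41 to 0.52 with a median of -0.11. Embryoid bodies were at 0.67, retinoic acid treated cells at 1.78, endoderm at 1.32 and 1.66, and mesoderm at 0.88. The 5 differentiated arrays lay above every adult array, and the difference was 1.32 ± 0.15 (SE, adjusted p = 1.65e-07, limma). The call held under all 20 alternatives, with adjusted p from 7.44e-09 to 0.00119. Foxa1 island 1 at the start was at -0.32 ± 0.25 (SD, n = 5) in differentiated cells and -0.26 ± 0.14 in adult tissue, and the downstream island 3 at -0.30 ± 0.13 and -0.34 ± 0.27. Neither passed the test.

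The other endoderm genes differed less. Foxa3 acts in liver and gut with the other FoxA genes. Its downstream island was at 0.73 ± 0.10 in differentiated cells and 0.23 ± 0.19 in adult tissue. The difference was 0.50 ± 0.10 (SE, adjusted p = 0.000372, limma), with 2 of 5 arrays above every adult array. The parent lines were at 0.92 (EB5) and 0.79 (TT2), and 1 of 5 derivatives lay above its own parent. Foxa2 island 1, upstream, was higher than in adult tissue by 0.37 ± 0.12 (adjusted p = 0.0237). There EB5 was at 0.60 and TT2 at 0.83, and 1 of 5 derivatives lay above its own parent. Foxp4 fell by 0.87 ± 0.25 at island 4 (adjusted p = 0.0105) and by 0.63 ± 0.23 at island 2 (adjusted p = 0.0441), and both ranges overlapped those of adult tissue. The call at island 2 was lost in 14 of 20 alternatives, with differences from -0.99 to -0.05 and adjusted p from 0.0397 to 0.902, and that at island 4 in 3 of 19. Islands 1, 3 and 5 of Foxp4 did not pass. Foxl1, a gene of the mesenchyme under the gut epithelium, Foxq1, known from stomach and hair, Foxe1, needed for the thyroid, and Foxp1, of lung and gut, did not pass at any island.

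The neural group held the largest difference among the 57 islands. Foxi2, a relative of the inner ear gene Foxi1, is measured by 5 probes at chr7:135248776-135249189, between 89 and 458 bases after its start. Adult arrays ranged from -1.04 to 0.36 with a median of -0.52. Embryoid bodies were at 1.50, retinoic acid treated cells at 0.51, endoderm at 0.65 and 1.11, and mesoderm at 1.33. All 5 exceeded every adult array, and the difference was 1.43 ± 0.19 (SE, adjusted p = 1.67e-06, limma). The call held under all 19 alternatives in which the island was scored, with adjusted p from 4.08e-07 to 0.00342. Among the sequences above, that of Foxi2 has the fewest CpGs. It ends 50 bases after the RefSeq start, and the probes begin 89 bases after the array's start, so it does not give their CpG content.

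Foxj1, the regulator of motile cilia, was at 0.94 ± 0.26 at its start (chr11:116150331-116151841), against 0.15 ± 0.35 in adult tissue. The differentiated arrays were at 1.29, 0.56, 0.92, 0.94 and 1.00, in the order embryoid bodies, retinoic acid, endoderm 1, endoderm 2 and mesoderm. Adult arrays ranged from -0.36 to 0.91 with a median of 0.19, so 4 of 5 lay above all of them. The difference was 0.79 ± 0.16 (SE, adjusted p = 0.000587, limma).

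Foxd3, which keeps neural crest and epiblast cells undetermined, rose at its most distant upstream island, at -5412 to -4837 bases from the start. The 5 arrays, in the same order, were at 0.25, 0.33, 0.88, 0.84 and 0.21, and adult arrays ranged from -0.64 to 0.39 with a median of -0.16. Both endoderm arrays lay above all adult arrays and the other 3 within their range. The difference was 0.67 ± 0.13 (SE, adjusted p = 0.000459, limma). Island 2 was at -0.22 ± 0.48 against -0.36 ± 0.33 in adult tissue and the start island 3 at -0.47 ± 0.32 against -0.38 ± 0.15, and neither passed.

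Foxn4, which acts in retinal progenitors and spinal interneurons, moved by less but with a narrow spread. Its start island was at -0.07, 0.16, -0.07, 0.10 and 0.10 on the differentiated arrays, all above the adult range of -0.64 to -0.08, and the difference was 0.44 ± 0.08 (SE, adjusted p = 0.000178, limma). Foxd4, a gene of early neural ectoderm, rose by 0.37 ± 0.13 at its downstream island 2 (adjusted p = 0.0362), with 3 EB5-derived arrays at 0.12 to 0.39 and both TT2-derived arrays at -0.45 and -0.29. This call was lost in 10 of 18 alternatives, with differences from 0.11 to 0.48 and adjusted p from 0.00698 to 0.63. Foxb1, Foxb2, Foxe3, a lens gene, and Foxp2, known for its part in speech, did not pass.

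In the mesoderm group, Foxf1a stood out by opposite differences from adult tissue at neighbouring islands. Foxf1a, now called Foxf1, is needed for gut and lung mesenchyme and vessels. At its downstream island 3 (chr8:123975346-123975856), 4918 to 5380 bases from the start, adult arrays ranged from -0.56 to 0.87 with a median of 0.45. Embryoid bodies were at 2.14, retinoic acid treated cells at 2.08, endoderm at 0.86 and 1.04, and mesoderm at 1.49. Only the lower endoderm array lay within the adult range, and the difference was 1.18 ± 0.20 (SE, adjusted p = 4.84e-05, limma). At the start island 2 the score was lower by 0.41 ± 0.11 (adjusted p = 0.00558), at -0.69 ± 0.21 against -0.28 ± 0.23 in adult tissue. The upstream island 1 was at -0.61 ± 0.44 against -0.35 ± 0.42 and did not pass.

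The remaining mesoderm calls were lower scores. Foxc1 island 2 fell by 0.79 ± 0.26 (SE, adjusted p = 0.0265, limma), with 3 of 5 arrays below the adult minimum of 1.13 and the TT2-derived pair at 1.41 and 2.14. Foxc2, which shapes lymphatic valves and whose island includes 4 probes shared with the divergent gene Mthfsd, fell by 0.38 ± 0.11 (adjusted p = 0.0138). Foxf2, the relative of Foxf1a in gut and palate, fell by 0.26 ± 0.08 at its start island 2 (adjusted p = 0.0153). Foxd1 and Foxd2, both known from the kidney, and Foxl2, of the ovary, did not pass.

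In the metabolism group, Foxr1 and Foxo3a island 2 were lower than in adult tissue, where their levels were high. At these islands all 5 differentiated arrays lay above their own parent line. Foxr1 was at 2.39, 2.24, 2.17, 2.22 and 1.82 on the differentiated arrays, all below the adult minimum of 2.46, a difference of -0.87 ± 0.23 (SE, adjusted p = 0.00641, limma). Foxo3a island 2 was at 2.59, 2.69, 2.14, 2.56 and 2.38, also below every adult array, with a difference of -0.72 ± 0.21 (adjusted p = 0.0117). Foxo6, a FoxO gene of the brain, rose by 0.56 ± 0.10 at island 2 within the gene (adjusted p = 0.000174), where all 5 arrays lay above every adult array, retinoic acid treated cells by the least (0.28). Foxo1, Foxj2, Foxj3, Foxk2 and Foxn2, which are broadly expressed, did not pass.

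Slide and scan day bore on this comparison. Only 2 differentiated arrays shared a slide with an adult array. On the slide of the endoderm replicate 2 and pancreas replicate 1 arrays, all 11 higher and all 8 lower islands kept their direction. On that of embryoid bodies and brain replicate 2, 9 of 11 and 8 of 8 did. These arrays were part of the fit that made the calls, so the agreement is partly built in. With slide as a block 8 islands passed, of which 7 were among the 19. With scan day as a block 8 passed, of which 6 were among the 19. Foxa1 island 2, Foxi2 and Foxn4 passed with either block.

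**Figure D4:**
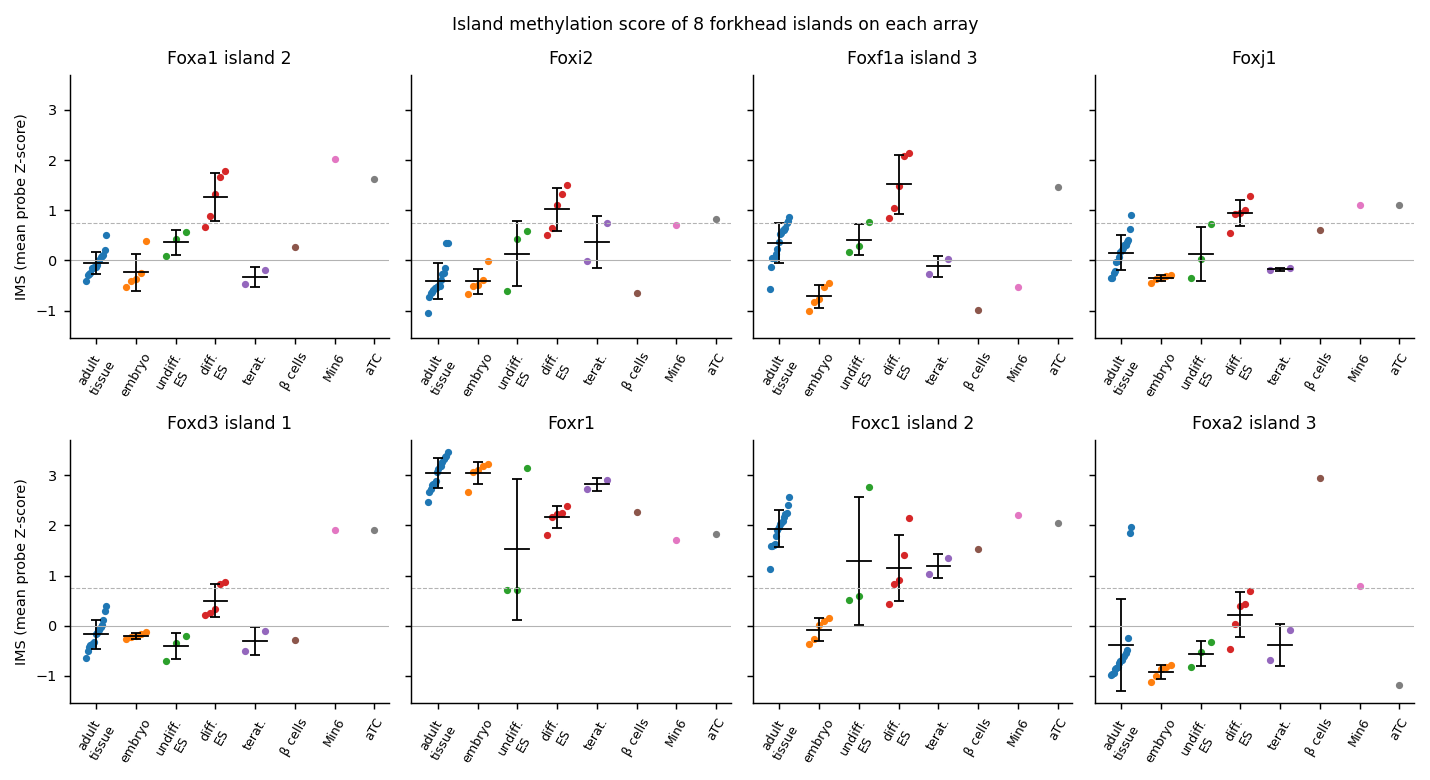
IMS of 8 forkhead islands on each array (points, sorted by value within a group) with the mean and SD of each group of at least 2 arrays (lines). The solid grey line is at 0 and the broken line at 0.75. Foxa1 island 2 and Foxi2 are higher in the 5 differentiated ES arrays than in all 16 adult arrays, and J1 sits apart from EB5 and TT2 at Foxr1.

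Before differentiation few forkhead islands differed from adult tissue. In undifferentiated ES cells 3 of 57 passed, where 2.3% of all islands did, 0.984% higher and 1.31% lower. Foxr1 was at 0.72 in EB5, 0.71 in TT2 and 3.15 in J1, against an adult range of 2.46 to 3.47. EB5 and TT2 lay below every adult array and J1 within their range, and the difference was -1.51 ± 0.28 (SE, adjusted p = 0.0071, limma). Foxp4 island 4 was at 0.09 in EB5, 0.41 in TT2 and 2.34 in J1, a difference of -1.12 ± 0.30 (adjusted p = 0.0462). Foxa3 was at 0.92, 0.79 and 0.37 in the same order, a difference of 0.46 ± 0.12 (adjusted p = 0.0388). Without J1 7 islands passed, 3 higher and 4 lower. Without EB5 none did, and without TT2 none did. The Foxa3 call was lost in 10 of 15 alternatives.

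Differentiated cells set against undifferentiated ES cells gave 6 calls among the 57, where 5.43% of all islands passed, 3.51% higher and 1.92% lower. Both this comparison and the one with adult tissue use the same 5 differentiated arrays. Foxf1a island 3 rose by 1.11 ± 0.28 (SE, adjusted p = 0.0179, limma), Foxd3 island 1 by 0.91 ± 0.19 (adjusted p = 0.00504), Foxa1 island 2 by 0.90 ± 0.22 (adjusted p = 0.0123), Foxj1 by 0.81 ± 0.23 (adjusted p = 0.0367) and Foxo6 island 2 by 0.54 ± 0.15 (adjusted p = 0.0291). Foxf2 island 2 fell by 0.39 ± 0.11 (adjusted p = 0.0372). Foxi2 was at 0.44 in EB5 and 0.59 in TT2 before differentiation and at -0.61 in J1, and did not pass. Without retinoic acid treated cells 9 islands passed, and without the endoderm replicate 2, embryoid body or mesoderm array 3 did. Of the 6 calls, 4 held without J1, 2 without EB5 and 3 without TT2. Those lost without J1 were Foxo6 island 2, at 0.28 (adjusted p = 0.293), and Foxf2 island 2, at -0.42 (adjusted p = 0.0622). The Foxf2 call was also lost with the shared probes alone (adjusted p = 0.074), where another island passed in its place. With slide as a block only Foxa1 island 2 and Foxj1 of the 6 held, and with scan day as a block, with the 2 groups alone or with the methods' t-test after adjustment none did.

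Each derivative could be set beside its own parent line by the labels. At Foxa1 island 2, EB5 was at 0.09 and its 3 derivatives at 0.88 to 1.66, and TT2 was at 0.58 and its derivatives at 0.67 and 1.78. At Foxj1, EB5 was at -0.35 with derivatives at 0.92 to 1.00, and TT2 at 0.03 with derivatives at 0.56 and 1.29. At Foxd3 island 1, EB5 was at -0.20 with derivatives at 0.21 to 0.88, and TT2 at -0.33 with derivatives at 0.25 and 0.33. All 5 derivatives thus lay above their own parent at these 3 islands, as they did at Foxf1a island 3 and Foxo6 island 2. These islands were called higher in the preceding comparison, which holds the same arrays, so the agreement is partly built in. Foxr1 also lay higher in all 5, at 1.82 to 2.39 against 0.72 and 0.71 in the parents. So did Foxa2 island 3, Foxo3a island 2, Foxo6 island 3 and Foxp4 islands 3 and 4. No derivative lay above its parent at Foxc1 island 1, Foxd1 island 1, Foxf2 island 2, Foxo3a island 1 or Foxp4 islands 1 and 5. The same held at Foxj3, Foxo1, Foxp1 and Foxq1. Each parent line is 1 array that all its derivatives are set against. The share of all islands with either pattern is not given here, so the lists only describe these arrays.

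The EB5 and TT2 lines were compared for their change on differentiation with an interaction term. None of the 57 islands passed, and none of all 13616 islands did (limma, 0% of islands), with 3 forkhead islands at an unadjusted p under 0.05, where 3.04% of all islands were. These 3 were Foxo3a island 2, Foxp4 island 4 and Foxc1 island 2, each at an adjusted p of 0.999.

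Embryos had lower scores than adult tissue at 9 forkhead islands and higher scores at none. Among all islands 8.64% passed, 3.47% lower and 5.17% higher. The median difference was -0.11 over forkhead islands and 0.04 over all islands. The mesoderm group held 6 of the 9 calls among its 14 islands, the neural group 2 of 15, the endoderm group 1 of 17 and the metabolism group none of 11.

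Foxc1 island 2 had the largest difference. The embryo arrays from 8.5 to 12.5 days were at 0.01, -0.27, -0.37, 0.15 and 0.09, against 1.13 to 2.56 with a median of 2.00 in adult tissue. The groups did not overlap, and the difference was -2.01 ± 0.26 (SE, adjusted p = 1.45e-05, limma). Foxp4 island 4 was at 0.61, 0.46, 0.54, 0.91 and 1.12 in embryos, all below the adult minimum of 1.24, with a difference of -1.34 ± 0.25 (adjusted p = 0.000759). Foxf1a island 3 was at -0.45, -0.82, -0.78, -1.01 and -0.53, a difference of -1.06 ± 0.20 (adjusted p = 0.000741), and 3 of 5 lay below every adult array.

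The other differences were smaller. Foxf2 island 3, within the gene, was at -0.99 ± 0.18 in embryos and -0.41 ± 0.41 in adult tissue (SD, adjusted p = 0.0422, limma). Foxj1 was at -0.35 ± 0.06 against 0.15 ± 0.35 (adjusted p = 0.0489). Foxd2 island 1 was at -0.26 ± 0.09 against 0.20 ± 0.22 (adjusted p = 0.00675), Foxc2 at -0.72 ± 0.18 against -0.26 ± 0.22 (adjusted p = 0.00882) and Foxf1a island 2 at -0.66 ± 0.13 against -0.28 ± 0.23 (adjusted p = 0.0252). Embryo arrays share no slide or scan day with adult arrays, and with slide or scan day as a block, estimable only through the ES cell arrays that link them, none of the 9 passed. Foxc2 then lay at 0.21 (slide) and 0.11 (scan day) and Foxf1a island 2 at 0.0065 (slide). Leaving out the 9.5, 10.5 or 11.5 day array left 5 calls each. All 5 embryo arrays and 6 of the 16 adult arrays gave the smaller set of probes. With the shared probes alone 7 islands passed, Foxf1a island 2 no longer (adjusted p = 0.0542), and with the probe set as a block 5 did, without Foxc2 (adjusted p = 0.051), Foxf2 island 3 (0.0702) and Foxj1 (0.177).

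Differentiated ES cells set against embryos, a contrast that shares the differentiated arrays with those above, differed at 17 of 57 islands, 15 higher and 2 lower. Among all islands 21.1% passed, 11.8% higher and 9.29% lower. The median difference was 0.11 over forkhead islands and -0.04 over all islands. By role 5 of 17 endoderm, 5 of 15 neural, 3 of 14 mesoderm and 2 of 11 metabolism islands rose, and the 2 lower islands were in the metabolism group.

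Foxf1a island 3 differed most, by 2.24 ± 0.24 (SE, adjusted p = 2.39e-07, limma), with embryos at -1.01 to -0.45 and differentiated cells at 0.86 to 2.14. Foxa1 island 2 differed by 1.50 ± 0.19 (adjusted p = 1.64e-06), where the 8.5 day embryo was at 0.39 and the other embryos at -0.53 to -0.26. Foxi2 differed by 1.44 ± 0.24 (adjusted p = 6.88e-05) and Foxj1 by 1.29 ± 0.20 (adjusted p = 3.35e-05). These 4 had the largest differences, and none of them overlapped between the groups. Overlap was not counted over all islands.

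Higher scores were also found at Foxc1 island 2, by 1.22 ± 0.32 (SE, adjusted p = 0.00659, limma), Foxp4 island 3, by 1.14 ± 0.38 (adjusted p = 0.0332), Foxl1 island 2, by 1.08 ± 0.29 (adjusted p = 0.00817), Foxo6 island 3, by 1.06 ± 0.30 (adjusted p = 0.0108), and Foxf2 island 3, by 1.02 ± 0.22 (adjusted p = 0.00149). Foxd3 island 1, Foxd4 island 2, Foxo6 island 2, Foxe1, Foxa3 and Foxn4 rose by 0.29 to 0.69. The calls at Foxp4 island 3 and Foxn4 were lost in 13 of 21 and 13 of 24 alternatives. Foxe1 passed here and not against adult tissue, with -0.20 ± 0.11 in differentiated cells, -0.62 ± 0.22 in embryos and -0.31 ± 0.21 in adult tissue (SD). Foxo3a island 2 and Foxr1 were lower, with differences of -0.90 ± 0.26 (SE, adjusted p = 0.0127) and -0.88 ± 0.28 (adjusted p = 0.0271). With slide as a block only Foxa1 island 2 passed, and with scan day as a block none did.

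Teratomas lay below differentiated ES cells at 4 forkhead islands. All 4 were also called higher in differentiated ES cells than in adult tissue, with the same differentiated arrays. By the labels the teratomas came from J1 and the differentiated cells from EB5 or TT2. Parent line and growth in a host thus cannot be told apart. Foxa1 island 2 was at -0.19 and -0.46 in the teratomas, below the lowest differentiated array at 0.67, and the difference was -1.59 ± 0.24 (SE, adjusted p = 0.000149, limma). Foxf1a island 3 was at -0.27 and 0.03, a difference of -1.64 ± 0.32 (adjusted p = 0.00156). Foxj1 was at -0.20 and -0.15, a difference of -1.12 ± 0.26 (adjusted p = 0.00785), and Foxd3 island 1 at -0.51 and -0.10, a difference of -0.80 ± 0.22 (adjusted p = 0.0239). These 4 of 57 were the calls, all lower, where 6.81% of all islands passed and 5.27% were lower. None of the 4 overlapped between the groups, and overlap was not counted over all islands. Foxi2, with the higher array at 0.74, did not pass. Without teratoma replicate 1 a single island passed, and without replicate 2 2 did.

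Against adult tissue no forkhead island passed in teratomas, where 0.191% of all islands did (limma). An unadjusted p under 0.05 was reached by 2 of 57 forkhead islands and by 7.79% of all islands. These were Foxc2, at -0.83 and -0.82 against an adult mean of -0.26 ± 0.22 (adjusted p = 0.236), and Foxi2, with a difference of 0.78 ± 0.28 (SE, adjusted p = 0.458). The methods' lines for the teratomas differ from the label, and the share of host cells in them is not known.

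The beta cell line Min6 and the alpha cell line aTC had high scores across much of the family, as the plot of the 3 endocrine samples shows. Both lines were more than 1 IMS above ex vivo beta cells at 18 of the 57 islands, or 31.6%, against 4.64% of all islands. Singly, Min6 was higher by more than 1 at 21 islands and lower at 1, where 6.98% of all islands were higher and 3.46% lower. For aTC the counts were 23 and 3, where 9.75% and 4.23% were. These are differences between single arrays with no test. Min6 and aTC were on the same slide and the beta cells on another, all scanned on the same day, so slide and cell type cannot be told apart between the lines and the beta cells.

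**Figure D5:**
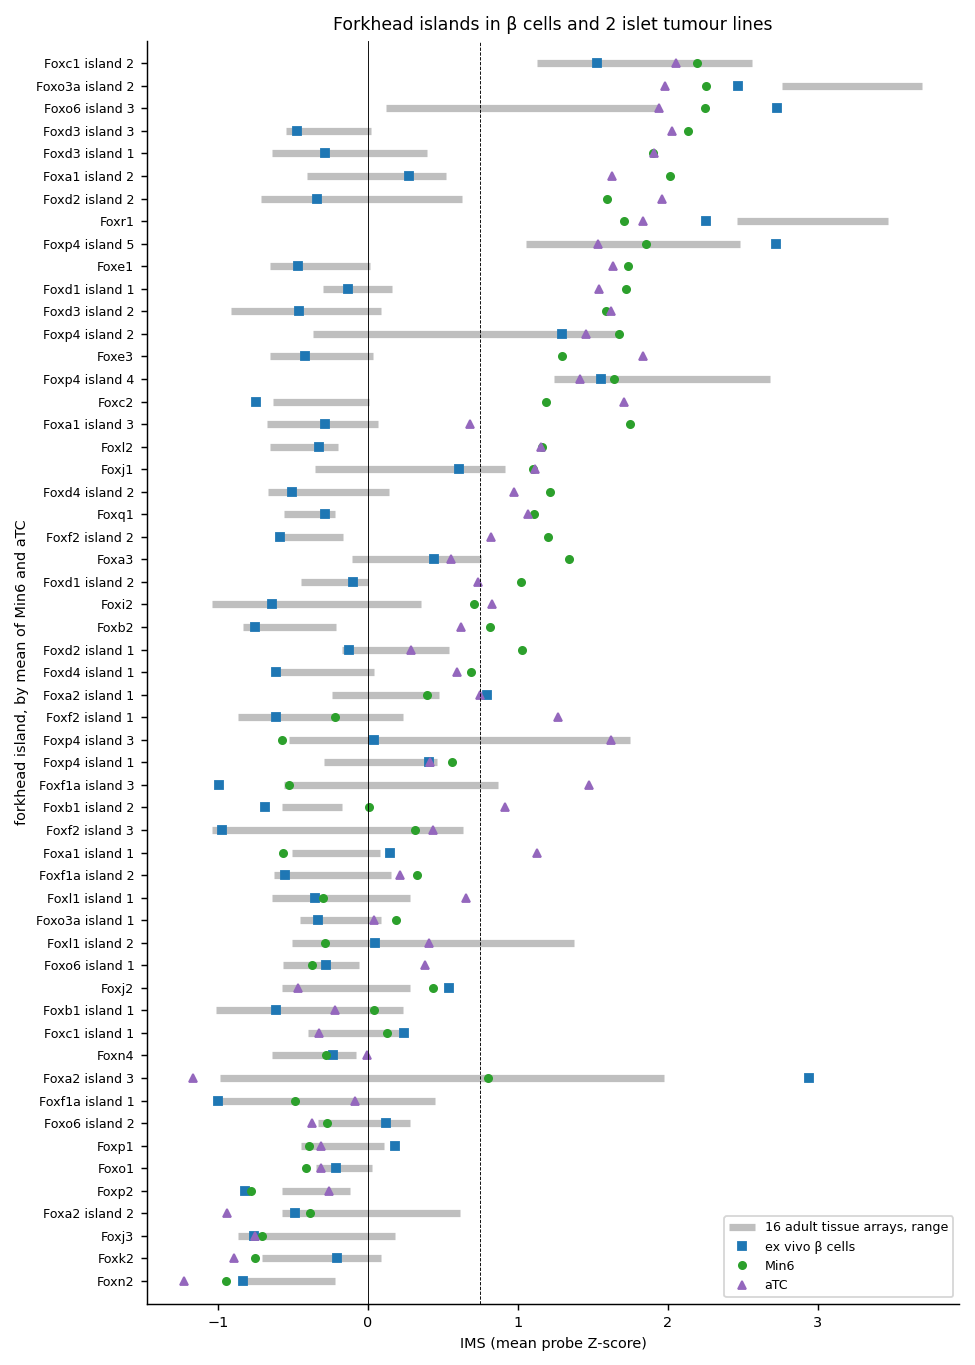
IMS of 55 forkhead islands in Min6, aTC and ex vivo beta cells (points), with the range over the 16 adult arrays (grey bars). At 17 islands drawn both lines lie more than 1 above the beta cells, and Foxa2 island 3 has the reverse order.

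The median over the 57 islands was 0.71 in Min6, 0.75 in aTC and -0.28 in ex vivo beta cells. Over all islands the medians were -0.31, -0.34 and -0.14, so that the forkhead islands lay above the general level of the lines. More than 0.75 was reached at 28 forkhead islands in each line, or 49.1%, against 19.5% of all islands in Min6 and 23.1% in aTC. On adult arrays 5 to 9 forkhead islands were above 0.75, or 8.77% to 15.8%, against 10.1% to 14.5% of all islands. Embryos had 3 to 4, or 5.26% to 7.02%, against 9.36% to 11.8% of all islands. Undifferentiated ES cells had 3 to 8, or 5.26% to 14.04%, against 10.5% to 11.1%. Differentiated ES cells had 9 to 12, or 15.8% to 21.1%, against 12.4% to 16.7%. Teratomas had 5 to 6, or 8.77% to 10.5%, against 10.745% to 10.965%. The beta cells had 9, or 15.8%, against 12.7% of all islands. Of the 9 start islands that stayed below 0 throughout adult tissue, 4 were above 0.75 in Min6 and 4 in aTC, against 4.42% and 6.39% of the 4053 such islands in all. None of the 9 was on the other 16 non-adult arrays, where at most 1.88% of the 4053 were.

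By role, the 18 islands with both lines higher were 9 of 15 neural, 6 of 14 mesoderm, 3 of 17 endoderm and 0 of 11 metabolism islands. By position, 12 of 29 start islands were among them, 2 of 8 upstream, 2 of 11 within the gene and 2 of 9 downstream. Foxd3 had all 3 of its islands among them. Its start island 3 (chr4:99148017-99150141) was at 2.13 in Min6 and 2.03 in aTC, at -0.48 in beta cells, and no higher than 0.02 on any adult array. Island 1 was at 1.90, 1.91 and -0.29, and island 2 at 1.59, 1.62 and -0.46. The printed Foxd3 sequence, with its 25 CpGs, is from the RefSeq start of the same gene and was not placed against this island.

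Other start islands with this pattern included those of Foxe1 (1.73 in Min6, 1.63 in aTC and -0.47 in beta cells), Foxd1 (1.72, 1.54 and -0.14), Foxe3 (1.29, 1.83 and -0.42), Foxc2 (1.19, 1.71 and -0.75), Foxl2 (1.16, 1.15 and -0.33), Foxq1 (1.11, 1.07 and -0.28), Foxf2 (1.20, 0.82 and -0.59), Foxb2 (0.81, 0.62 and -0.75), Foxd4 (0.69, 0.59 and -0.61) and Foxi2 (0.71, 0.83 and -0.64). Away from the starts, Foxa1 island 2, Foxd2 island 2, Foxd4 island 2 and Foxf2 island 3 also had it. Foxf2 island 3 was at only 0.31 in Min6 and 0.43 in aTC, within the adult range, with beta cells at -0.98. At 18 islands both lines lay above all 32 other arrays, where 8.49% of all islands did. Foxa1 island 2, Foxi2 and Foxf2 island 3 were not among those, where a differentiated ES array lay above at least 1 of the lines. At Foxf2 island 3 the lung replicate 1 array, at 0.63, also lay above both lines.

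The 5 highest means over the lines were those of Foxc1 island 2 (2.20 in Min6 and 2.05 in aTC), Foxo3a island 2 (2.25 and 1.98), Foxo6 island 3 (2.25 and 1.94) and Foxd3 islands 3 and 1. The Foxc1, Foxo3a and Foxo6 islands were also high in beta cells, at 1.53, 2.47 and 2.73. Within the metabolism group, the start islands of Foxo1, Foxj3 and Foxn2 and the internal island of Foxk2 were at -0.31 or below in both lines.

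The lines differed from each other at a few islands. Foxf1a island 3 was at 1.47 in aTC and -0.53 in Min6, Foxp4 island 3 at 1.62 and -0.57, Foxa1 island 1 at 1.13 and -0.57, and Foxf2 island 1 at 1.27 and -0.22. Foxa2 island 3 went the other way. It was at 2.94 in ex vivo beta cells, above all 33 other arrays, at 0.80 in Min6 and at -1.17 in aTC, while whole pancreas was at -0.48 and -0.24. Thus the same island, of 4 probes, was high on the colon arrays, which filled their scan day alone, and on the beta cell array. It was low in the other adult tissues. Beta cells, Min6 and aTC, with 1 array each, came in falling order.

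Islands of one gene often had different values across the groups. In Foxf1a, Foxa1 and Foxd3, the island with the largest gain in differentiated ES cells was not the start island, and the start island was below 0 on all 5 differentiated arrays for Foxf1a and Foxa1 and on 4 of 5 for Foxd3. In Foxp4, island 5 had means between 1.81 and 2.41 in adult tissue, embryo, undifferentiated and differentiated ES cells and teratoma. Island 4, which begins 19852 bases from the start against 51638 for island 5, had means of 2.07, 0.73, 0.95, 1.19 and 1.51 in that order.

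Genes that act with forkhead factors, a list of 42 that includes Smad, Gata, Hnf and Akt genes, had 62 islands in 33 genes. In differentiated ES cells against adult tissue 9 of these rose and 7 fell, where 14.4% of all islands rose and 8.73% fell, with a median difference of -0.04 against -0.01 over all islands. Embryos were lower than adult tissue at 5 of the 62 and higher at none, where 3.47% and 5.17% of all islands were. Gata4, a zinc finger partner of FoxA proteins in endoderm and heart, was at 1.37 ± 0.31 (SD, n = 5) in differentiated cells and 0.09 ± 0.94 in adult tissue at a promoter island (adjusted p = 0.00932, limma). Pax1, a sclerotome gene, was at 0.41 ± 0.24 and -0.36 ± 0.16 (adjusted p = 1.75e-06), and the Notch ligand gene Dll4 at 0.16 ± 0.22 and 0.99 ± 0.51 (adjusted p = 0.00454). In teratomas against adult tissue none of the 62 passed, where 0.191% of all islands did.

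Forkhead probes on the array that did not form an island by the rule are not described. They belonged to a Foxa3 promoter run and the other run of Foxj2, each with fewer than 3 measured probes on some array, to a single Foxn2 probe, and to runs at Foxh1 and Foxm1 in which fewer than 3 probes carried the forkhead name.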

How the data were processed

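Arrays carried DNA of 34 samples, bound DNA in Cy5 and input DNA in Cy3. Per the file headers and the study's methods, the authors scanned them with Agilent Feature Extraction, which subtracted background, normalised the dyes linearly and gave a log10 ratio per spot; median intensity and background intensity are also deposited, as are spot flags, which are other values per the file headers. The deposited value table holds a score per probe that the authors made as a Z-score within each array according to probe melting temperature. From the log10 ratios, control spots and flagged outlier spots were left out, probes were turned into Z-scores within each array and averaged over islands (gaps of at most 500 bases, at least 3 probes). Differences were tested with limma 3.58.1 (lmFit, eBayes) in R 4.3.3 over all 13616 islands with Benjamini-Hochberg adjustment, at an adjusted p under 0.05. Adult tissue, embryo, undifferentiated and differentiated ES cells shared 1 fit, teratoma was added in another, and the tissue comparisons used the 16 adult arrays. In the group fits each array counted as a separate sample, without terms for tissue or parent line. The J1 array was part of their shared spread. The fit was tested on simulated data. Groups came from the labels.

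Alternatives were a median-centred log2 scale, normexp background correction (offset 50) on median signals, which are in every file, the deposited Z-scores, bright probes only, the median of probes, at least 5 probes, gaps of 1000 bases, slide, scan day or replicate number as a block, the groups compared alone, the methods' t-test, and leaving out each array. Slide as a random block, a single software version, the probes shared by all arrays and the set of probes on an array as a block were added after seeing the data. The members, role groups and the list of genes acting with forkhead factors were chosen with earlier results of these data known. The results for 1 member gene, which stays in all counts and medians, are not reported here and its 2 islands are not drawn. Values are given for islands past the test (at most 20 per comparison), those above 0.75 on all 16 adult arrays, the 3 highest and 3 lowest adult means and the 5 highest means of Min6 and aTC, besides examples of each role group. Probe positions are as the array gives them, and their genome build is not given in the sources used here. No array duplicated another, with a highest correlation of 0.967 over islands.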

Additional observations from a re-analysis of the deposited data

Results flagged for a closer look

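At Foxf1a island 2, the start island of this gut and lung mesenchyme gene, the retinoic acid treated cells were at -0.32 and the 4 other differentiated ES arrays at -0.84 to -0.75, a gap larger than expected by the Dixon test for 5 arrays. Chance flags about 1 in 20 groups, and 66 groups of 4 to 10 arrays were tested over the islands with printed values. The cause was not tested.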

How the results depend on the processing

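Counts of forkhead islands past the test moved with the processing. For differentiated ES cells against adult tissue (19) they were 9 with the deposited Z-scores, which score 34 forkhead islands, 8 with slide and 8 with scan day as a block. For undifferentiated cells against adult tissue (3) the count was 0 on the log2 scale, with normexp, with at least 5 probes, with scan day as a block, with 1 software version and with the methods' t-test after adjustment, 1 with the 2 groups alone and 13 with the deposited Z-scores. For differentiated against undifferentiated cells (6) it was 1 on the log2 scale, 0 with normexp, with the 2 groups alone and with the t-test, 14 with the deposited Z-scores, 3 with the median of probes, 2 with slide, and 2 with scan day, neither among the 6. For embryo against adult tissue (9) it was 2 with normexp, 4 with the deposited Z-scores, 5 with the median of probes, 0 with slide and with scan day as a block, 4 with slide as a random block and 5 with the probe set as a block. For differentiated ES cells against embryo (17) it was 5 with normexp, 10 with the deposited Z-scores, 10 with bright probes, 1 with slide and 0 with scan day. For teratoma against differentiated ES cells (4) it was 2 on the log2 scale, 2 with normexp and 0 with the t-test. The cause was not tested.

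Among tissues (1) it was 0 with normexp and with at least 5 probes, which leaves Foxa2 island 3 out, and in single tissues (2) it was 0 with normexp and 1 with the deposited Z-scores, bright probes, the median of probes and at least 5 probes. The share below 0 on every adult array (15.8%) was 8.77% on the log2 scale, 31.6% with normexp and 44.1% with the deposited Z-scores, and the share above 0.75 (8.77%) was 3.51% with normexp.

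Directions reversed in 5 cases. In embryo against adult tissue Foxc2 was at 0.21 with slide and 0.11 with scan day and Foxf1a island 2 at 0.0065 with slide. In differentiated ES cells against embryo Foxa3 was at -0.016 with slide and Foxc1 island 2 at -0.29 with scan day. Leaving out arrays in turn gave 14 to 19 islands for differentiated ES cells and 0 to 7 for undifferentiated cells against adult tissue, 3 to 9 between these, 5 to 7 for embryo against adult tissue, 13 to 18 for differentiated ES cells against embryo, 0 to 0 and 1 to 4 for teratoma against adult tissue and differentiated ES cells, 1 to 1 among tissues, 0 to 0 for the interaction and 1 to 2 for single tissues. With the replicate number as a block 1 island passed among tissues, 2 in single tissues and 0 in teratoma against adult tissue, so the block changed no call. Replicate deviations correlated over 0.1 in 14 of 28 pairs of tissues, with a range of -0.25 to 0.63, and in 1 of 8 of teratoma with tissue. The replicate 1 arrays of brain, kidney, liver, lung, muscle and spleen shared a scan day and the larger probe set. Their replicate 2 arrays gave the smaller set. Whether the numbers pair the samples was not settled. Slide and scan day could not be fitted as fixed blocks for teratomas. Dim bound signal and few arrays per group limit small differences.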
